A study of Mus musculus with 32 samples.

Results

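The neuropeptide genes of the spinal dorsal horn, 9 of the 42524 genes in the count table, were followed in the spinal cord of mice with and without the SOD1 G93A transgene. The members were picked by name as peptides that dorsal horn neurons make: Tac1, Tac2, Penk, Pdyn, Sst, Npy, Grp, Cck and Nts. The rule names genes and uses no measured value, although it was set with earlier results of these data known, and all 9 passed the filter on low counts in each fit. The G93A line, B6-Tg(SOD1-G93A)1Gur/J on a C57BL/6J background, carries a mutated human SOD1 gene in every cell and is used as a model of amyotrophic lateral sclerosis (ALS), in which motor neurons of the ventral horn die. Wildtype (WT) littermates were the controls, and OKN-007, a nitrone compound with antioxidant and anti-inflammatory action, was given in the drinking water. RNA came from weighed pieces of spinal cord, and neither the level of the cord nor the dose of the sequenced mice is named in the labels. There were 8 groups of 4 mice: WT untreated, WT with OKN-007, G93A untreated and G93A with OKN-007, each at 90 days and again, in other mice, at 155 days. The labels describe the 90-day mice by that time, whereas the study's methods put the age of the early mice a few days later. Neither source says that the 4 samples of a group came from separate litters or dissection days, so the p-values below measure the spread between these samples and no more.

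The dorsal horn receives touch, itch, heat and pain fibres from the body, and most of its neurons are local interneurons. Many release a peptide beside glutamate, GABA or glycine. Each peptide is cut from a longer precursor by convertases in dense-core vesicles, is released at high firing rates and acts on G protein-coupled receptors of neighbouring neurons. Excitatory interneurons are the main makers of Tac1, Tac2, Grp, Cck, Nts and most Sst, inhibitory interneurons make Npy and most Pdyn, and Penk is found in both. These cells lie outside the motor pools whose loss defines ALS.

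Total counts per mouse ran from 19701722 to 30138257, with a median of 26658755. Levels are given in CPM, read counts scaled to library size with TMM factors, and 3 counts in the smallest library correspond to 0.152 CPM. All 20 genes of a dorsal horn neuron list, such as Lbx1, Lmx1b and Calb2, exceeded 1 CPM in every mouse, with summed levels of 722 to 968 CPM. The motor neuron list was present too (168 to 468 summed CPM), so the pieces held both horns. Of the 10 genes of a sensory ganglion list, 4 stayed under 1 CPM in all mice and 3 exceeded it in all. That list summed to 125 to 276 CPM and shares Prph and Ret with the motor neuron list, so these sums are not independent. Several features of the tissue moved with genotype at 155 days. The 8 pan-neuronal genes summed to between 5021 and 5715 CPM in untreated WT mice and to between 3149 and 4094 CPM in untreated G93A mice, whereas the 8 astrocyte genes summed to between 4662 and 5178 CPM and between 13759 and 17289 CPM. Caudal Hox genes, which mark the lumbar and sacral end of the cord, summed to between 88.4 and 157.9 CPM in untreated WT mice and between 4.43 and 82.6 CPM in untreated G93A mice at 155 days, without overlap. With OKN-007 the ranges were 129.4 to 172.7 and 22.8 to 68.6 CPM. WT mice with OKN-007 at 90 days ranged from 22.7 to 70.5 CPM. Some lists also differed between the times in untreated WT mice. The 8 oligodendrocyte genes summed to between 19024 and 22242 CPM at 90 days and between 11721 and 14193 CPM at 155 days. The astrocyte sums were 6135 to 7169 and 4662 to 5178 CPM, whereas the dorsal horn sums overlapped (883 to 961 and 901 to 958 CPM). A short transcript index, the mean log2 CPM of genes under 2852 bases minus that of genes over 6968 bases, averaged −1.24 in untreated WT and −1.06 in untreated G93A mice at 155 days, against −0.93 to −1.02 in the groups at 90 days. Liver transcripts reached up to 190 summed CPM in 3 libraries that stood apart from the others in this respect, and without them 5 in place of 7 members were called between the times in untreated G93A mice, 7 in place of 8 in the G93A average, and 2 in place of 3 between genotypes in OKN-007 mice at 155 days, the other counts standing as given below.

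Sst was the most abundant of the 9 mRNAs per unit of length. In untreated WT mice at 90 days it stood at 258 ± 54.1 CPM per kilobase (SD, n = 4), followed by Penk, the enkephalin precursor, at 102 ± 6.38. Tac2 (46.1 ± 8.68), Cck (39.7 ± 7.17) and Npy (39.5 ± 10.9 CPM per kilobase) formed a middle group whose ranges overlapped. Nts stood at 25.4 ± 3.06, and Tac1, Pdyn and Grp were lowest at 8.84 ± 0.982, 6.20 ± 0.767 and 4.48 ± 0.943 CPM per kilobase. Summed over the 9 genes, the levels ran from 374 to 737 CPM across the 32 mice.

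The plot of CPM by mouse shows that within a gene most groups lay close together. When the 8 groups were ordered by mean CPM, 7 of 7 neighbouring pairs differed by less than their pooled SD for Tac1, Tac2, Penk, Pdyn, Npy and Nts. The order of Sst had 2 steps wider than the SD, and both were at its lower end, where WT with OKN-007 at 155 days stood above G93A with OKN-007 (a step of 36.0 CPM) and the latter above untreated G93A mice (8.44 CPM). For Cck the step from untreated WT to untreated G93A mice at 155 days was 15 CPM and the only one beyond the SD. For Grp the wide step fell between the 90-day and the 155-day groups.

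**Figure D1:**
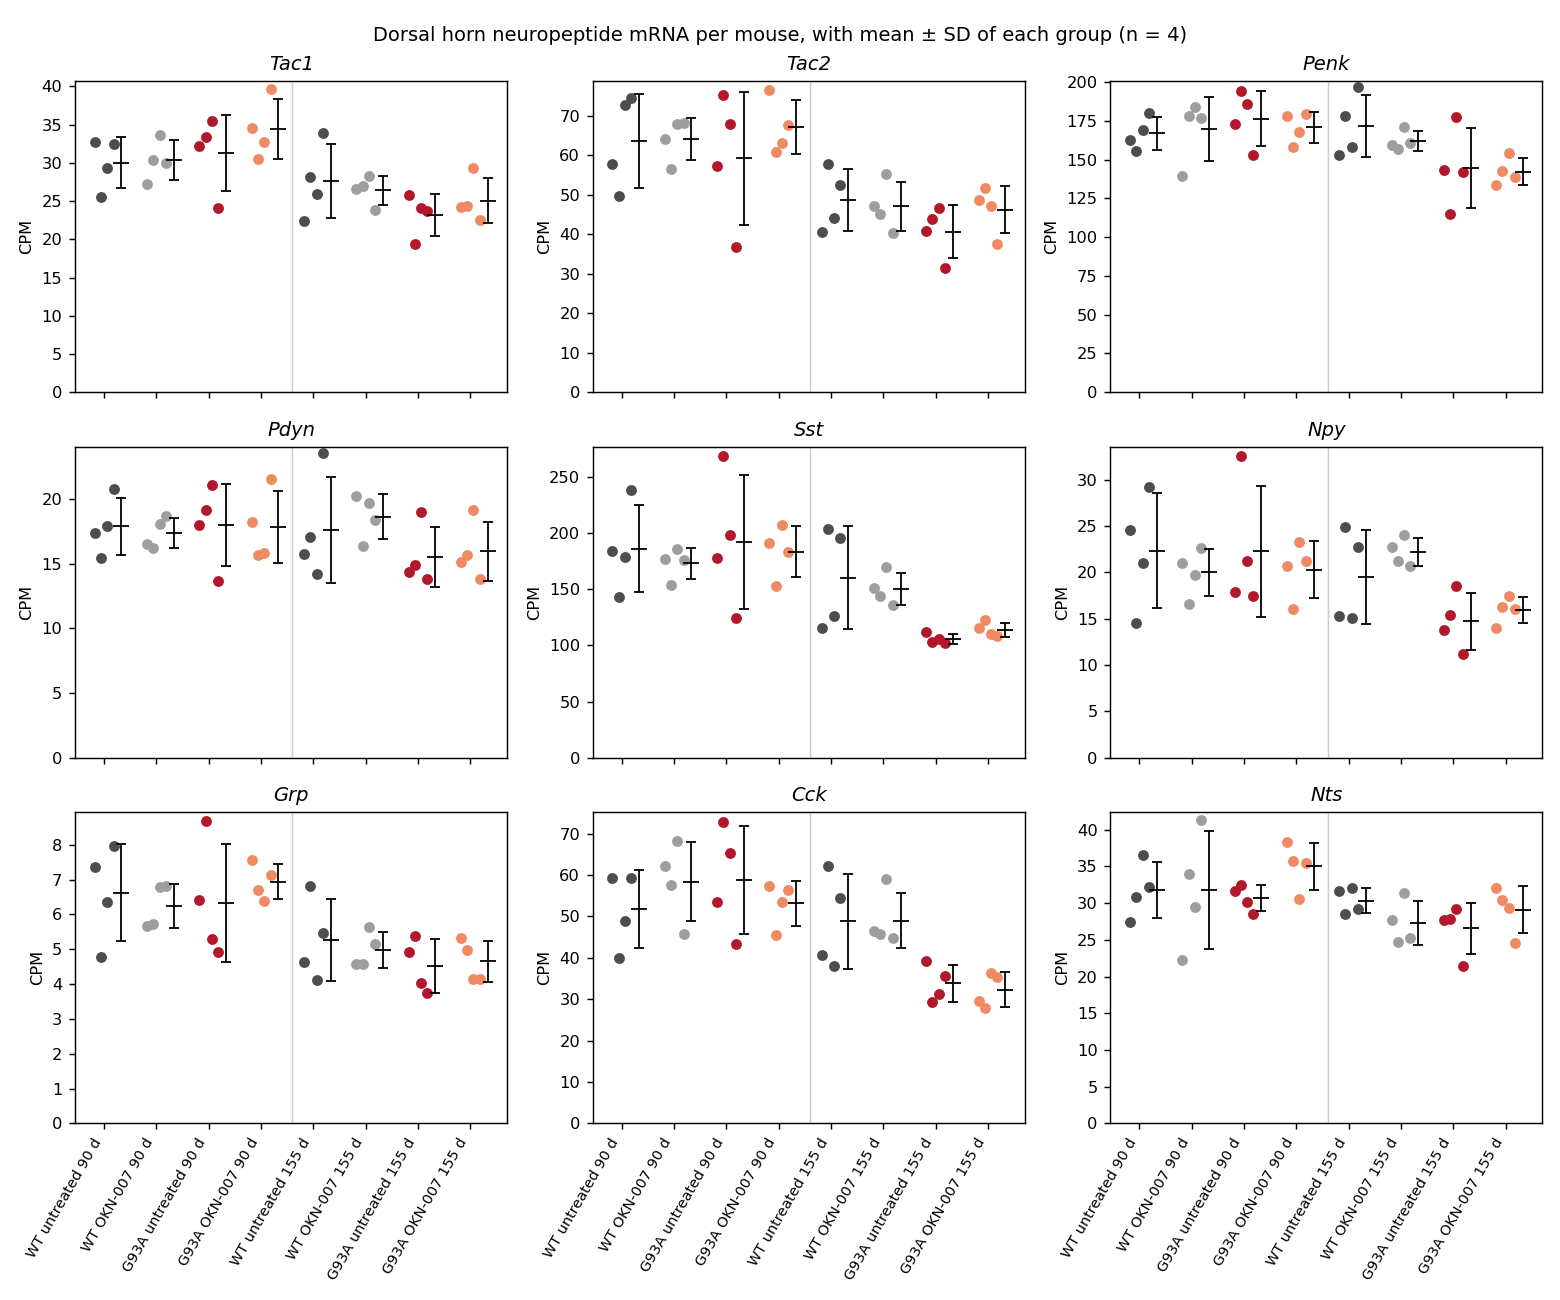
Level of each neuropeptide mRNA in CPM (vertical axes start at 0) for the 8 groups, with 1 point per mouse and the mean ± SD of each group (n = 4) as the bar beside it. The means of the G93A groups at 155 days are lowest for every gene but Nts. The step from the other groups down to them exceeds the pooled SD for Sst and Cck alone. The points of Pdyn overlap between all 8 groups.

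The stretch of 90 bases before the transcription start is shown for Sst, Cck and Npy, which were lower in G93A mice in the comparisons below, and for Tac1, which was not called there. A cAMP response element, the binding site of the activity-regulated factor CREB and its relatives, is a known feature of the Sst promoter. The sequences are those of RefSeq on GRCm38.p6, written in the direction of transcription, and capitals mark the full element TGACGTCA or its half-site TGACG, which reads CGTCA on the other strand. Positions are chr16:23890845-23890934 (minus strand) for Sst, chr9:121495695-121495784 (minus) for Cck, chr6:49822620-49822709 (plus) for Npy and chr6:7554971-7555060 (plus) for Tac1.
Sst: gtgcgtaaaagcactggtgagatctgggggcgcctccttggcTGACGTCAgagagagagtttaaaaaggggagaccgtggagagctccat
Cck: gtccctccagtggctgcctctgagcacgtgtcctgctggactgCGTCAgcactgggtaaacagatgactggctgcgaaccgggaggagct
Npy: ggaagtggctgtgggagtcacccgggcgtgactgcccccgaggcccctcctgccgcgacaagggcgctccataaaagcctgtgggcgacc
Tac1: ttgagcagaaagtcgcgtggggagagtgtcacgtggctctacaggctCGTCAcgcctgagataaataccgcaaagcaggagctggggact

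The Sst element began 48 bases before the start, and the half-sites of Cck and Tac1 began 47 and 43 bases before it. The full element holds a half-site on each strand. Windows of 7 of the 9 genes (8 windows) were searched, and those of Penk and Grp were not. The half-site was found within 250 bases of the start in 4 of the searched genes, Sst, Cck, Tac1 and Nts. Over all genes, 17.8% of 32851 such windows held the half-site and 1.55% the full element. No half-site was found in the windows of Npy, Pdyn and Tac2. Among the searched genes the full element was found in Sst alone, and the half-site in genes called lower and in genes that were not. These matches are a description of the windows and no more.

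At 155 days, all 9 fold changes of untreated G93A against untreated WT mice were below 0, and 2 of the 9 genes passed the test (lower: Sst and Cck). Across all genes 39.5% of 18675 passed in either direction and 18.2% were lower, so 2 of 9 is close to the background. Without WT untreated replicate 1 or G93A untreated replicate 11 the count was 4. The median log2 fold change of the members was −0.23, against 0.00 over all genes. Because the cord was sampled in bulk, fewer peptide neurons and less peptide mRNA per neuron cannot be told apart in these values.

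Somatostatin, from Sst, dampens the neurons it reaches through inhibitory receptors and marks a large population of excitatory interneurons that relay mechanical pain. Its level was 115, 204, 126 and 195 CPM in the untreated WT mice and 112, 103, 106 and 103 CPM in the untreated G93A mice at 155 days. The highest G93A mouse lay just under the lowest WT mouse, and the G93A values were far more tightly grouped (SD 4.24 against 45.9 CPM). The mean was 34.0% lower, with a log2 fold change of −0.58 ± 0.14 (SE) and an adjusted p of 0.00227 by edgeR's quasi-likelihood test. Over all genes 14.7% showed such non-overlap with G93A below WT, and among the members Sst was the 1 that did. The log2 fold change ranged from −0.71 to −0.44 when any 1 mouse was left out, with the call kept each time.

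Cholecystokinin, from Cck, is an excitatory peptide of deep dorsal horn interneurons that opposes opioid analgesia. It stood at 40.7, 62.1, 38.0 and 54.5 CPM in untreated WT and at 39.2, 29.3, 31.2 and 35.6 CPM in untreated G93A mice. Only 1 G93A mouse reached the WT range, at its lower edge. The fold change was −0.51 ± 0.14 on the log2 scale, with an adjusted p of 0.00726, and leaving out single mice kept the adjusted p between 0.00239 and 0.0439.

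Npy encodes neuropeptide Y, which inhibits pain- and itch-transmitting neurons through Npy1r and Npy2r. Levels were 15.2, 24.9, 15 and 22.7 CPM in untreated WT and 13.8, 15.4, 18.5 and 11.2 CPM in untreated G93A mice at 155 days. The groups overlapped, and the difference of −0.39 ± 0.16 on the log2 scale missed the threshold (adjusted p = 0.0551). This result turned on single mice, with adjusted p values from 0.015 to 0.244 as each was left out.

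The remaining 6 genes were not called. Penk, whose enkephalins act on delta and mu opioid receptors, measured 153, 178, 158 and 197 CPM in untreated WT and 143, 115, 178 and 142 CPM in untreated G93A mice (log2 fold change −0.23, adjusted p = 0.0834). The dynorphin precursor Pdyn, which feeds the kappa opioid receptor, measured 15.8, 17.1, 14.2 and 23.5 CPM against 14.4, 14.9, 19.0 and 13.9 CPM (−0.17, adjusted p = 0.354). Both opioid precursors thus overlapped between genotypes. Tac1, the substance P precursor, measured 22.4, 28.1, 26.0 and 33.9 CPM against 25.8, 19.4, 24.0 and 23.7 CPM (−0.23, adjusted p = 0.121). Tac2, the neurokinin B precursor, measured 40.5, 57.7, 44.2 and 52.4 CPM against 40.7, 43.8, 46.6 and 31.3 CPM (−0.25, adjusted p = 0.147). The tachykinins overlapped as well. Gastrin-releasing peptide, from Grp, relays itch, and its log2 fold change was −0.21 (adjusted p = 0.337). For neurotensin, from Nts, the value was −0.18 (adjusted p = 0.179).

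In the mice given OKN-007, the same comparison at 155 days called 3 of the 9 genes lower (Cck, Npy and Sst) beside 41.5% of all genes in either direction and 18.2% lower. Sst measured 151, 144, 170 and 136 CPM in WT and 115, 122, 110 and 109 CPM in G93A mice, a log2 fold change of −0.36 ± 0.14 (adjusted p = 0.0423). Cck measured 46.5, 45.7, 59.0 and 44.8 CPM in WT and 29.6, 27.8, 36.3 and 35.4 CPM in G93A mice (−0.57 ± 0.14, adjusted p = 0.0033). Npy measured 22.7, 21.2, 24.1 and 20.7 CPM in WT and 14, 16.3, 17.5 and 16 CPM in G93A mice (−0.44 ± 0.15, adjusted p = 0.0287). In each of these 3 genes every G93A mouse lay below every WT mouse. The same held for Penk (157 to 171 against 133 to 154 CPM), which was not called (−0.15, adjusted p = 0.256), and over all genes 20.8% separated in this way. Tac2 and Tac1 were close to level between the genotypes here, at 0.01 and −0.04 on the log2 scale. Leaving out 1 of 4 mice at a time (WT replicates 5 and 7, G93A replicates 13 and 16) reduced the count to 1, Cck.

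Averaged over both treatments, 4 of the 9 genes were lower in G93A mice at 155 days, beside 54.7% of all genes called and 25.8% lower. The log2 fold changes were −0.54 ± 0.10 for Cck (adjusted p = 0.000151), −0.47 ± 0.10 for Sst (0.000415), −0.41 ± 0.11 for Npy (0.00356) and −0.19 ± 0.07 for Penk (0.0325). Nts was level at −0.02. The interaction of genotype and treatment was not called for any member (0.0% of all genes), so the differing calls in untreated and treated mice are not shown to be different effects. The largest interaction was that of Nts, 0.32 on the log2 scale, with an unadjusted p of 0.045 (1 member of 9 under 0.05) and an adjusted p of 0.9998 by edgeR, and DESeq2 called none.

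**Figure D2:**
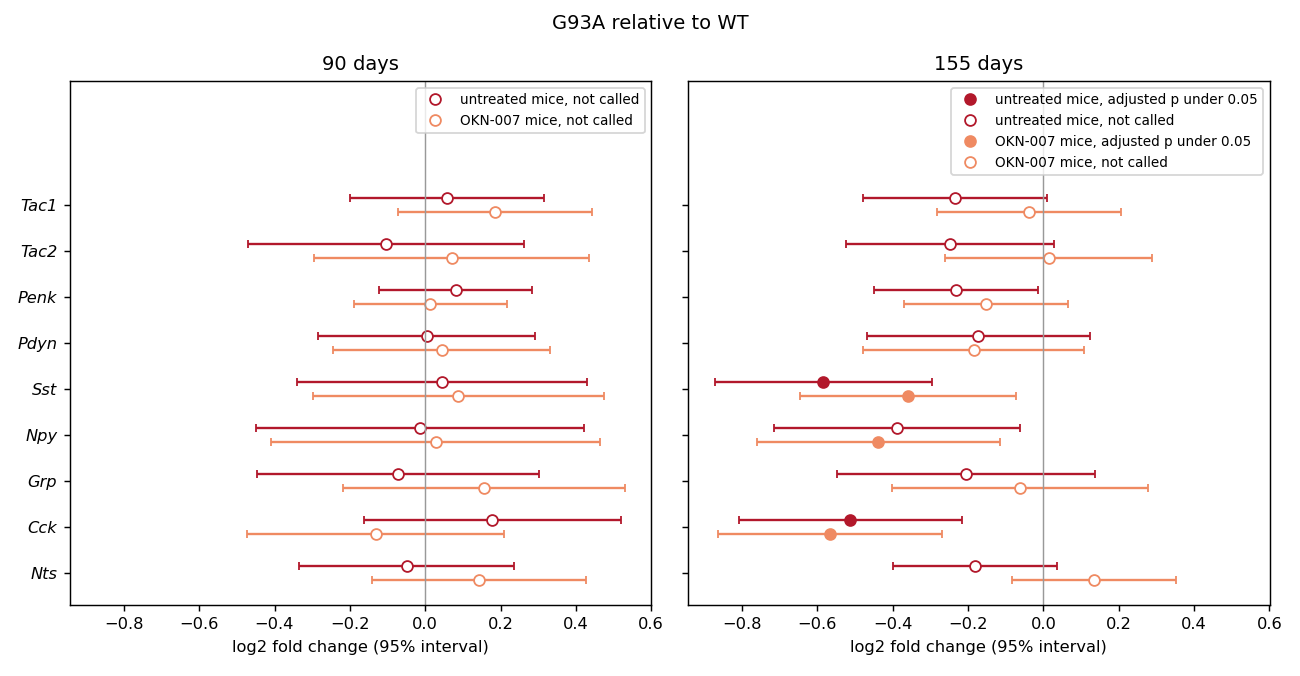
Log2 fold change of G93A against WT mice for the 9 genes at 90 days (left) and 155 days (right), in untreated and OKN-007 mice, with 95% intervals; filled points have an adjusted p under 0.05. At 90 days all points are open and near 0, and at 155 days Sst and Cck are filled in both treatments and Npy in the OKN-007 mice.

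These calls moved with the region markers. When the caudal Hox score of each mouse entered as a covariate, none of the 9 genes was called in untreated mice at 155 days, where Sst stood at −0.44 (adjusted p = 0.106) and Cck at −0.42 (adjusted p = 0.141) on the log2 scale. In OKN-007 mice and in the average over treatments 1 gene, Cck, kept its call (−0.50, adjusted p = 0.0404, and −0.46, adjusted p = 0.0316). The score, a mean over log values, ran from 0.67 to 3.14 in untreated WT and from −2.43 to 0.89 in untreated G93A mice at 155 days, so the groups overlapped by 1 mouse each on it while their Hox sums did not overlap. Relations of the peptides with this score within groups are given further below, and the part of cord level was not tested otherwise. The short transcript index, chosen as a covariate after seeing the data, had the opposite influence: 5 genes were then called in untreated mice (Sst −0.82, Npy −0.70, Cck −0.68, Tac2 −0.49 and Penk −0.37) and 7 in the average. The share of all genes called in these fits is not given, nor in those that leave out mice or libraries. A change particular to the peptides is therefore not shown.

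At 90 days the peptides did not separate the genotypes. None of the 9 genes was called in untreated or in OKN-007 mice, beside 0.0% of 18899 genes in each, and 0 of the 9 reached an unadjusted p under 0.05 by edgeR, with 0 called by DESeq2. Of all genes, 1126 and 747 did so. The members' log2 fold changes lay between −0.10 and 0.18 in untreated mice, and the widest 95% limits over the members were −0.47 and 0.52. Sst measured 184, 144, 179 and 238 CPM in WT and 178, 269, 199 and 125 CPM in G93A untreated mice at this time. Cck measured 59.3, 39.9, 48.9 and 59.3 CPM in WT and 53.4, 72.9, 65.3 and 43.2 CPM in G93A mice. The G93A values of Sst spanned the WT range, and those of Cck overlapped it. In the average over treatments no member was called either, against 0.0265% of all genes.

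Between 90 and 155 days, 7 of the 9 genes were lower in the later untreated G93A mice, where 33.7% of 19829 genes were called and 12.8% lower. The log2 fold changes were −0.86 ± 0.17 for Sst (adjusted p = 0.000176), −0.79 ± 0.16 for Cck (0.000242), −0.59 for Npy (0.018), −0.54 for Tac2 (0.00949), −0.48 for Grp (0.0286), −0.43 for Tac1 (0.00674) and −0.29 for Penk (0.0266). Pdyn (−0.21, adjusted p = 0.273) and Nts (−0.21, adjusted p = 0.207) were not called. Sst and Cck did not overlap between the times, with lowest values of 125 and 43.2 CPM at 90 days and highest values of 112 and 39.2 CPM at 155 days, beside 10.5% of all genes. This result leaned on a single mouse. Without G93A untreated replicate 10 at 90 days, which had 269 CPM of Sst and 72.9 CPM of Cck, 3 genes were called. Averaged over treatments, 8 of the 9 genes were lower in later G93A mice, all but Pdyn, beside 48.8% of all genes called and 21.1% lower. The part of the oligodendrocyte and astrocyte differences between the times, given above for WT mice, was not tested.

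The later untreated groups enter both the genotype and the time comparisons, so the 2 kinds share mice. In untreated WT mice none of the 9 genes was called between the times (24.9% of all genes called and 9.61% lower), with Tac2 at −0.38 (adjusted p = 0.0772) as the 1 member with an unadjusted p under 0.05, and DESeq2 called none either. Leaving out untreated WT replicate 2 at 90 days or replicate 2 at 155 days each gave 2 calls. Averaged over treatments, Tac2 (−0.42, adjusted p = 0.0035) and Grp (−0.33, adjusted p = 0.0259) were lower in the later WT mice, beside 44.2% of all genes called and 20.2% lower. The 2 calls became 1 without WT untreated replicate 1 or WT OKN-007 replicate 7 at 90 days, or without WT untreated replicate 3 at 155 days. With the short transcript index as a covariate, the values of Tac2 and Grp turned to 0.02 and 0.07, and Npy, at −0.02 without it, stood at 0.52 (adjusted p = 0.0117). In untreated G93A mice the same covariate left 3 genes called, Sst (−0.57), Cck (−0.54) and Tac1 (−0.32).

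Whether the genotype difference itself changed between the times was tested as a difference of differences. For untreated mice Cck alone was called, with a change of −0.71 ± 0.22 on the log2 scale (adjusted p = 0.0237), beside 21.2% of all genes and 8.34% lower. Sst followed at −0.65 ± 0.24 (adjusted p = 0.0513). The Cck call was lost without G93A untreated replicate 10 at 90 days, WT untreated replicate 2 at 155 days or G93A untreated replicate 10 at 155 days, and 2 genes were called without any 1 of 4 other mice (WT untreated replicate 4 and G93A untreated replicate 12 at 90 days, WT untreated replicates 1 and 3 at 155 days). Over both treatments 3 of the 9 genes were called, Cck (−0.59, adjusted p = 0.00398), Sst (−0.56, adjusted p = 0.00875) and Penk (−0.26, adjusted p = 0.0397), beside 37.5% of all genes and 17.8% lower. Without G93A untreated replicate 12 at 90 days the count was 5. When the caudal Hox score entered the fit, 0 were called in either test, Cck standing at −0.51 (adjusted p = 0.142) and −0.42 (adjusted p = 0.0664).

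OKN-007 made no detectable difference to any of the 9 genes at either time in either genotype. Beside 0.0% of all genes called, 0 members had an unadjusted p under 0.05 in the 4 comparisons by edgeR, and DESeq2 called 0. In G93A mice at 155 days the effect on Sst was 0.12 on the log2 scale with a 95% interval of −0.17 to 0.41. For Npy it was 0.13 (−0.20 to 0.45) and for Cck −0.06 (−0.36 to 0.24). Penk, the most precisely measured, stood at −0.01 (−0.23 to 0.20). Over all 9 genes the limits reached −0.36 and 0.48 in G93A mice and −0.43 and 0.50 in WT mice at 155 days, and −0.56 and 0.54 in G93A and −0.61 and 0.51 in WT mice at 90 days. These are the widest limits over the 9 genes and not limits of detection. With 4 mice a group, an effect inside a gene's own interval is not excluded. Over all genes 755 and 549 had an unadjusted p under 0.05 in G93A and WT mice at 155 days, and 1050 and 769 at 90 days.

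**Figure D3:**
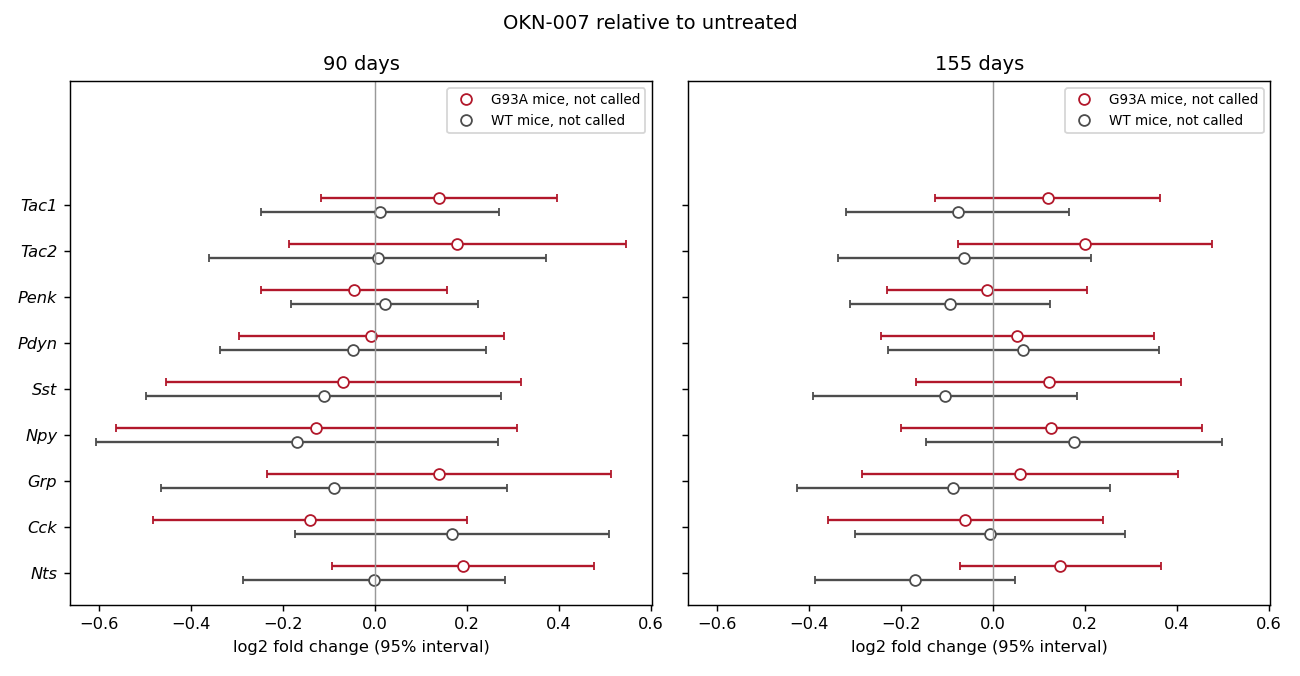
Log2 fold change of OKN-007 against untreated mice for the 9 genes at 90 days (left) and 155 days (right), in G93A and WT mice, with 95% intervals. All points are open, meaning none had an adjusted p under 0.05, and at 155 days the intervals stay between −0.43 and 0.50.

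The receptors of these peptides were a list of their own. The fits with covariates and those leaving out mice were made for the peptides alone. In untreated mice at 155 days the peptide calls were lost when the caudal Hox score was entered. Whether the receptor calls would be kept in such fits was not tested. In untreated G93A against untreated WT mice at 155 days, 16 of 18 listed receptors could be tested, of which 11 were lower and 1 higher, with a median of −0.69 on the log2 scale, beside the 18.2% of all genes that were lower and the 21.3% that were higher. The summed level of the list, of which Ntsr2 was the largest part, was 264 to 283 CPM in WT and 263 to 284 CPM in G93A mice. Tacr1, the substance P receptor of projection neurons, measured 14.3, 11.5, 12.8 and 13.4 CPM in WT and 6.80, 5.96, 6.24 and 11.7 CPM in G93A mice (−0.74 ± 0.16, adjusted p = 0.00132). The neurokinin B receptor Tacr3 stood at −0.70 (adjusted p = 0.000336). Both tachykinin receptors were lower while their ligands, Tac1 and Tac2, were not called, and that difference was not tested.

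All 3 classical opioid receptors were lower. Oprk1, the receptor of dynorphin, measured 7.64, 6.60, 7.72 and 7.61 CPM in WT and 4.50, 4.35, 4.06 and 4.53 CPM in G93A mice, without overlap (−0.75, adjusted p = 0.000596). Oprd1 stood at −1.0 (adjusted p = 0.0113). Oprm1 stood at −1.65 ± 0.49 (adjusted p = 0.0115), from levels under 2 CPM in every one of these mice. Their ligand genes Penk and Pdyn were not called in the same comparison, and a difference between receptor and ligand was not tested.

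Of the receptors of the other peptides, the somatostatin receptors Sstr1 (−0.75, adjusted p = 0.00735) and Sstr2 (−0.60, adjusted p = 0.00532) were lower. Sstr3 was not called (−0.30, adjusted p = 0.102), and Sstr4 and Sstr5 were too low to test. Npy1r measured 13.2, 11.6, 12.1 and 15.9 CPM in WT and 8.91, 8.57, 8.33 and 10.2 CPM in G93A mice (−0.54, adjusted p = 0.000675). Npy2r followed at −0.67 (adjusted p = 0.00062), and Npy5r was not called (−0.41, adjusted p = 0.0924). Cckar was lower at −0.75 (adjusted p = 0.0439), whereas Cckbr, the main cholecystokinin receptor of the nervous system, stood at −0.29 (adjusted p = 0.0982). The itch receptor Grpr was lower at −1.30 ± 0.42 (adjusted p = 0.0199), again from a low level of 0.394 to 1.38 CPM in WT mice. Ntsr1 was not called (−0.27, adjusted p = 0.251).

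Ntsr2, a neurotensin receptor that is abundant in astrocytes, was the 1 receptor that was higher. It measured 166, 183, 166 and 176 CPM in WT and 194, 214, 229 and 196 CPM in G93A mice, without overlap (0.28 ± 0.06, adjusted p = 0.00173). In OKN-007 mice 10 of the 16 receptors were lower and 0 higher, beside 18.2% of all genes lower, and at 90 days none was called in untreated mice. No receptor was called for OKN-007 against untreated mice in either genotype at 155 days. Over both treatments, the genotype difference was lower at 155 than at 90 days for 12 of 17 receptors and higher for 1, beside 37.5% of all genes called and 17.8% lower. Between the times in WT mice, over both treatments, 9 of 17 were higher and 1 lower, beside 44.2% of all genes called and 20.2% lower.

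The machinery that cuts and stores the peptides was split. As for the receptors, its calls were not tested with the caudal Hox score or with mice left out. Of 13 genes, 7 were lower and 2 higher in untreated G93A mice at 155 days, beside 18.2% of all genes lower and 21.3% higher. The convertases Pcsk1 (−0.48, adjusted p = 0.00304) and Pcsk2 (−0.55, adjusted p = 0.000198) cleave the precursors, and Pcsk2 measured 112, 111, 124 and 110 CPM in WT against 87.9, 67.0, 69.0 and 84.3 CPM in G93A mice. Both were lower, as were the granule proteins Chga (−0.61), Chgb (−0.24) and Scg2 (−0.22). Carboxypeptidase E, from Cpe, trims the cut peptides and is also made by glia. It was higher in G93A mice (0.41, adjusted p = 0.00216), and so was the granule protein Scg3 (0.82, adjusted p = 8.62e-07). Pam, the amidating enzyme, was not called (−0.11, adjusted p = 0.244).

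**Figure D4:**
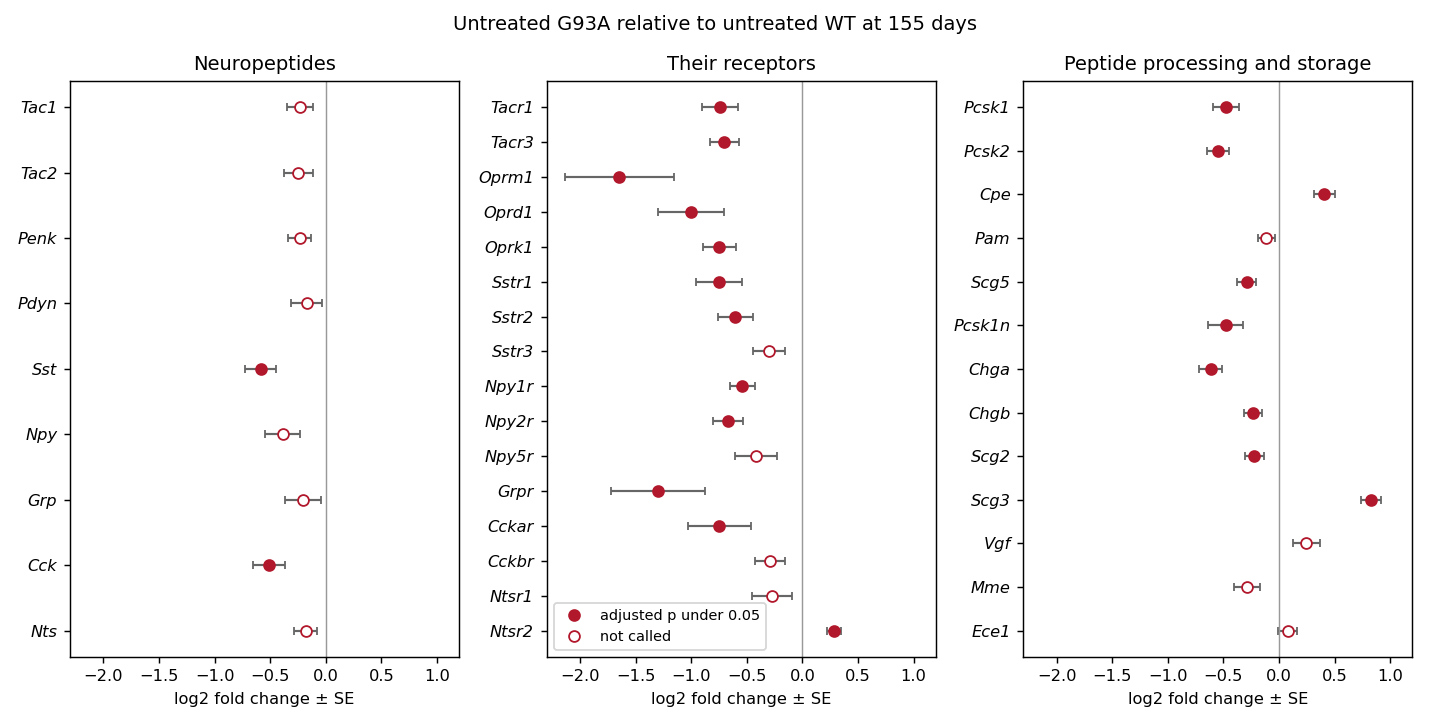
Log2 fold change ± SE of untreated G93A against untreated WT mice at 155 days for the 9 neuropeptides, the 16 tested receptors and 13 processing and storage genes; filled points have an adjusted p under 0.05. Most receptors lie further below 0 than Sst, the lowest peptide, and Ntsr2, Cpe and Scg3 are the filled points above 0.

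Beside these changes stood those of the cells. Rbfox3, which encodes the neuronal nuclear protein NeuN, measured 207, 226, 215 and 229 CPM in untreated WT and 152, 138, 149 and 154 CPM in untreated G93A mice at 155 days (−0.55 ± 0.07, adjusted p = 2.2e-06). All 8 pan-neuronal genes were lower, as were 8 of 10 motor neuron genes (Chat −0.41, adjusted p = 0.0025) and 8 of 20 dorsal horn genes, beside 18.2% of all genes. Of 16 other neuropeptides 4 were lower, which is near that share. Rorb (0.57) and Nfib (0.29) were the 2 of 20 dorsal horn genes that were higher. Gfap, the astrocyte filament, was higher by 2.4 and the microglial Aif1 by 2.70 on the log2 scale. Their part in the peptide values was not tested. The log2 fold changes of Sst (−0.58) and Cck (−0.51) stood beside that of Rbfox3 (−0.55), Npy stood at −0.39, and the other 6 members lay between −0.25 and −0.17. A list of 8 excitatory and inhibitory transmission genes summed to 1298 to 1392 CPM in untreated WT and 730 to 1060 CPM in untreated G93A mice. Slc17a6, 1 of the 8, measured 211, 183, 214 and 159 CPM against 125, 80.2, 71.3 and 127 CPM. How the peptides stand to these neuronal genes was not tested.

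Among mice of a group the peptides varied together. The deviation of each mouse from the mean of its group was taken on the log2 CPM scale, over 32 mice, for all 36 pairs of members, with 100000 permutations within groups. Of the 36 pairs, 26 had an adjusted p under 0.05. No share over other genes was computed, for these pairs or for the relations with other measures below. That such variation is particular to the peptides is therefore not shown. Without Nts it was 25 of 28 pairs, with r from 0.25 to 0.83, and with Nts 1 of 8, with r from −0.25 to 0.42. The strongest pair was Sst and Npy, an excitatory and an inhibitory marker, with Pearson's r = 0.83 (permutation p = 3e-05, adjusted 0.00027) and Spearman's rho = 0.75 (permutation p = 0.00011). It was 0.89 within the 90-day mice and 0.74 within the 155-day mice, and 0.81 without the 2 mice farthest from the median. Tac2 and Sst gave r = 0.81 (permutation p = 1e-05, the smallest these permutations can give; rho = 0.79, permutation p = 2e-05), and 0.70 without the 2 farthest mice. Sst and Cck gave r = 0.77 (permutation p = 0.00016, rho = 0.72, permutation p = 0.00053), and 0.71 without the 2 farthest.

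The peptides' deviations also followed other measures of the piece of cord. In a family of 45 relations (5 measures with 9 genes, 24 with an adjusted p under 0.05), Sst was lower where the motor neuron list was higher, with r = −0.74 (permutation p = 2e-05, adjusted 0.00045; rho = −0.58, permutation p = 0.0018). The value was −0.91 within the 90-day mice and −0.36 within the 155-day mice, and −0.63 without the 2 farthest mice. With the dorsal horn list the sign was positive, at r = 0.67 for Sst (permutation p = 0.00086, adjusted 0.00323; rho = 0.61, permutation p = 0.00255; 0.66 without the 2 farthest). For Tac2 and that list r was 0.71 (permutation p = 2e-05, adjusted 0.00045; rho = 0.70, permutation p = 6e-05; 0.69 without the 2 farthest). Cck showed a weaker value with the same list, r = 0.33 (permutation p = 0.131, rho = 0.31, permutation p = 0.139). With the pan-neuronal list the called relations were negative, for Tac2 (r = −0.61, permutation p = 0.00046, adjusted 0.00259) and Npy (r = −0.53, permutation p = 0.00475, adjusted 0.0119). Sst (r = −0.50, permutation p = 0.0008, adjusted 0.00323) and Pdyn (r = −0.41, permutation p = 0.0217, adjusted 0.0407) followed. The other members were not called with that list. The short transcript index was higher where Sst was higher, at r = 0.74 (permutation p = 0.00123, adjusted 0.00399; rho = 0.69, permutation p = 0.0013; 0.72 and 0.80 within the 2 times, and 0.63 without the 2 farthest). Sst, at 721 bases of exon, is itself a short transcript, and Tac1, at 3399 bases, gave r = 0.44 with the index (permutation p = 0.0764, rho = 0.44, permutation p = 0.0343). Nts did not follow the index (r = −0.01, permutation p = 0.928; rho = 0.09, permutation p = 0.638), and was the 1 member with a call against the caudal Hox score, r = −0.50 (permutation p = 0.00918, adjusted 0.0194; rho = −0.51, permutation p = 0.00939; −0.44 without the 2 farthest; −0.51 and −0.49 within the 2 times). Sst (r = 0.33, permutation p = 0.0333, adjusted 0.0582) was not called against that score. Nor were Cck (r = 0.34, permutation p = 0.0525, adjusted 0.0781) and Npy (r = 0.33, permutation p = 0.0892, adjusted 0.115).

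**Figure D5:**
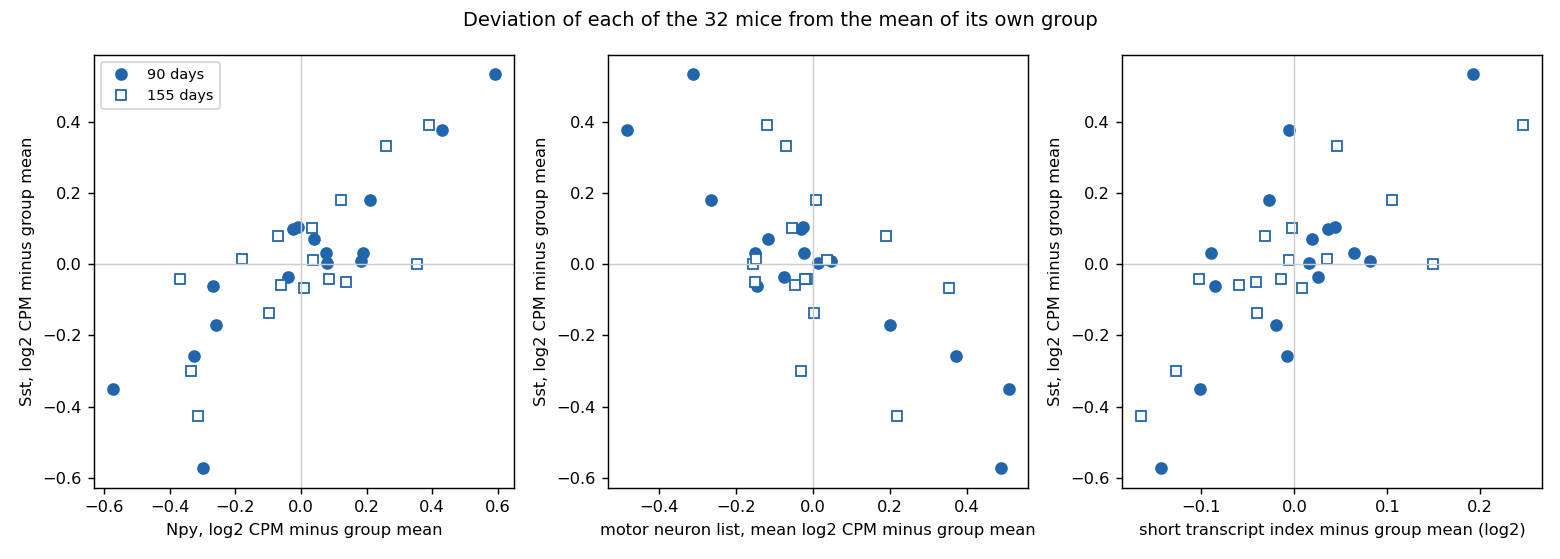
Deviation of Sst in each of the 32 mice from its group mean (log2 CPM, vertical) against the deviations of Npy, of the mean of the motor neuron list, and of the short transcript index (horizontal); circles are 90-day and squares 155-day mice. Sst goes up with Npy (r = 0.83) and the index (r = 0.74) and down with the motor neuron list (r = −0.74), with r = −0.91 for the latter in the 90-day mice.

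Of 19817 genes searched over the same 32 mice, those with deviations most like each peptide's were named by the highest r, given without a test. For Sst these were Ly6h (0.93), Wdr34 (0.92) and Bex1 (0.90), and Bex1 also led the list of Cck (0.84). For Tac2 they were Syt5 (0.89), Nrgn (0.88) and Rsph9 (0.86). The gene most like Npy was Sst itself (0.83), and Penk was among the 3 most like Tac1 (0.77), behind Hpca (0.79). Penk was led by Serpinb1b (0.82), Pdyn by Pck2 (0.79), Grp by Spint2 (0.83) and Nts by Kcnd3 (0.78).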

How the data were processed

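The 32 libraries were TruSeq Stranded mRNA sequenced on a NextSeq 500. The deposited table holds whole-number counts per gene, made by the authors with STAR and featureCounts on GRCm39 according to the submitters' processing notes, whereas the study's methods name HTSeq and an older annotation. The human SOD1 transgene was not analysed here. Symbols were paired with 41203 of the 42524 gene IDs. Counts were tested in edgeR 4.0.16 (R 4.3.3) with filterByExpr, TMM factors, the quasi-likelihood test and Benjamini-Hochberg adjustment over all genes tested (threshold 0.05), after a check on simulated data. Mice of 1 time were fitted as 4 groups, and time comparisons used all 32 mice as 8 groups. CPM are counts scaled to library size times TMM factor, and log2 CPM used a prior count of 2. Exon lengths and symbols came from GENCODE M21. Values per unit of length therefore rest on another annotation than the counts. The 9 members and all gene lists were chosen with earlier results of these data known. All members are named in each comparison, receptors and Pcsk1, Pcsk2, Cpe and Pam by rule, and other listed genes by the smallest adjusted p. Scg3, Chga, Chgb, Scg2 and Pcsk1n were listed as storage genes. Groups came from the labels. Alternatives included DESeq2 1.42.0, other scaling factors, other filters, covariates and leaving out each mouse.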

Additional observations from a re-analysis of the deposited data

Results flagged for a closer look

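Penk in the WT OKN-007 mice at 90 days had 1 low mouse, replicate 5 at 139 CPM, with the next at 177 CPM. Cck in the WT OKN-007 mice at 155 days had 1 high mouse, replicate 7 at 59.0 CPM, with the next at 46.5 CPM. Both gaps passed Dixon's 95% limit for 4 samples. In all, 72 groups of 4 were tested and 2 passed, where chance passes about 1 in 20 (3.6 here).

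The genotype difference was not the same at the 2 times, by the test of the difference itself. In untreated mice Cck changed by −0.71 on the log2 scale between 90 and 155 days. Over both treatments the change was −0.59 for Cck, −0.56 for Sst and −0.26 for Penk. None of these 4 values passed the test when the caudal Hox score was entered.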

How the results depend on the processing

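Counts are of the 9 members called, given first as reported. Such counts were not made for the receptors or the processing genes, so how far their calls depend on these settings was not tested. The share of all genes called under each setting is not set beside the counts, so shifts particular to the peptides are not shown. In untreated mice at 155 days (2), the count was 4 at an adjusted p under 0.10, 0 with the caudal Hox score and 5 with the short transcript index as a covariate (the index was chosen after seeing the data), and 2 to 4 with 1 mouse left out. With OKN-007 (3) it was 1 at a log2 fold change of at least 0.5, 1 with Hox, and 1 to 3 with 1 mouse left out. Averaged at 155 days (4) it was 1 at that fold, 1 with Hox, 7 with the index, and 3 to 4. Between the times in untreated WT (0) it was 1 with upper quartile factors, 1 at p under 0.10, and 0 to 2. In untreated G93A mice (7) it was 4 at the fold minimum, 4 with Hox, 3 with the index, and 3 to 7. In the WT average (2) it was 4 with upper quartile factors, 0 at the fold minimum, 1 with the index, and 1 to 3. In the G93A average (8) it was 4 at the fold minimum and 7 to 9. For the change of the genotype difference in untreated mice (1) it was 2 with DESeq2, 2 with the likelihood ratio test, 2 with no filter, 3 at p under 0.10, 0 with Hox, 4 with the index, and 0 to 2, and in the average (3) it was 5, 0 and 8 at p under 0.10, with Hox and with the index, and 2 to 5. With the index, WT values between the times reversed for Tac2 (0.025), Grp (0.067) and Npy (0.52). The cause of these shifts was not tested. Upper quartile factors lowered the members by a median of 0.12 and 0.11 on the log2 scale in the untreated and averaged G93A time comparisons. The replicate block gave 1 call in untreated WT mice and moved no other time comparison by as much. Sample numbers recur at both times in different mice. Of 16 such pairs 2 correlated above 0.1 (r from −0.21 to 0.13) and 2 matched their own number best, so the numbers do not pair mice. All counts at 90 days, for OKN-007 and for the interaction stayed at 0 under all alternatives run. Of the alternative values for single members 4410 kept direction and call, 94 lost and 67 gained the call, 86 moved and 3 reversed. With 4 mice a group, OKN-007 effects inside a gene's own interval are not excluded by these data.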
